A study of Homo sapiens with 4 samples.

Results

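The comparison set RNA against carried-over DNA at the synthetic centromere of HAC 4-65, using 2 of the 4 libraries of the series. The members were chosen by their labels, with earlier results of these data known, and are 2 libraries of HAC 4-65 cells. RT plus was made from reverse-transcribed RNA, and RT minus from the same kind of RNA without reverse transcription. Within them, 96 of the 128 CenU position codes that could be counted belong to the DNA that was put into this line, and each of the 96 is described against the 96 NCU codes of the same libraries.

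A human artificial chromosome (HAC) here is an extra chromosome that formed in HT1080 cells, a human fibrosarcoma line, after synthetic alphoid DNA was introduced. HAC 4-65 is carried by 1 cloned line, made with input DNA that held 96 CenU and 96 NCU units and selected with geneticin. CenU is an alphoid unit with functional CENP-B boxes and tet operators, NCU is the same kind of unit with mutated CENP-B boxes and lac operators, and each unit is joined to a short position code that tells it from the others. Both libraries came from total RNA, and the labels name no drug or knockdown for these cells. A competitive PCR with primers shared by all codes made the sequenced product, so a read count is a proportion of the codes in a tube and not an amount of RNA or DNA. No group was replicated, and with 1 library a side no test between conditions could be made. The 95% intervals given with the ratios cover counting error only, since reads of PCR products that carry no molecular identifier do not each stand for a molecule.

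Human centromeres are built on alphoid satellite repeats, and CENP-A, a variant of histone H3, marks the chromatin on which the kinetochore forms. The CENP-B box is the short motif in alphoid DNA that CENP-B binds, and it is needed for efficient formation of HACs. Alphoid DNA is transcribed at a low level in human cells, so RNA from it is easily outweighed by DNA that remains in an RNA preparation, and the library without reverse transcription is the control that shows the makeup of such DNA.

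The position codes are 23 bases long, and only 7 of these bases vary. In the sequences shown, which stand in the 5′ to 3′ direction as the study's code list gives them, capitals mark the variable bases at positions 4, 9, 10, 14, 15, 19 and 20, counted from 1 at the 5′ end. The first pair of lines is a CenU code and the NCU code of the same number, the next lines are codes that were higher in RT plus, and the last lines are codes that were lower.
CenU 13: gggGaaaaAAcccCAtttCAggg
NCU 13: gggCaaaaAAcccCAtttCAggg
CenU 79: gggGaaaaTAcccCGtttCGggg
CenU 80: gggGaaaaTAcccCCtttCCggg
CenU 21: gggGaaaaATcccTAtttTAggg
CenU 22: gggGaaaaATcccTTtttTTggg
CenU 57: gggGaaaaACcccGAtttGAggg
CenU 62: gggGaaaaACcccCTtttCTggg

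CenU and NCU codes of the same number differed by 1 base, written G4C from CenU to NCU, for 94 of the 96 numbers. Each of the 224 codes in the list has another code at 1 mismatch. A read of a common code that carries an error at such a base can therefore be counted for a rare one, and how many mismatches the matching allowed is not given in the sources used here. The exceptions were CenU 1 and CenU 72, for which the code list and the primer list gave exchanged letters, while the other 188 of the 190 codes compared had the same letters in both. The code list has the following letters.
CenU 1 in the code list: gggGaaaaTAcccTCtttTCggg
CenU 72 in the code list: gggGaaaaAAcccAAtttAAggg
The reference named CenU 1 held 2714 (RT minus) and 2440 (RT plus) reads, and the reference named CenU 72 held 77 and 55. In HAC 1-20 cells, whose input ran from code 65 to code 128, CenU 1 had 138% and CenU 72 had 4.15% of the reads of the median input code without reverse transcription. There the code numbered outside the input was well covered and the one numbered inside it was scarce, and the primer list, too, gives unit 72 the letters listed for CenU 1. Both place the reference named CenU 1 at unit 72, and sums over numbers are therefore also given with these 2 references exchanged.

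RT minus held 713705 reads matched to a code and RT plus held 683916. The reads of RT minus are taken as DNA because no reverse transcription was made. RT plus can hold both DNA and RNA reads, and the amounts of neither can be read from these totals or proportions. The input CenU codes took 124864 and 117889 of the matched reads, which is 17.5% and 17.3% of the input CenU and NCU reads together. NCU codes took 587383 and 563758 reads. The CenU to NCU ratio in RT plus was 0.984 (95% interval, 0.975 to 0.992) of that in RT minus, a log2 difference of -0.02. The summed share of CenU thus differed very little between the libraries, although the interval lies below 1. RT plus was scaled to RT minus by the summed NCU reads in everything that follows, with a factor of 0.960, so each ratio is relative to the summed NCU codes and cannot show a change that CenU and NCU shared.

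The reads of single CenU codes differed far more from code to code than between RT minus and RT plus. They ran from 27 to 4763 reads in RT minus, where the median was 942, and RT plus had a range of 25 to 4845 and a median of 845. Codes 2 to 5, the reference named CenU 1 (placed at unit 72 above) and the codes from 79 up held most of the highest counts. In RT minus, 20 codes lay under 20% of the median. Of these, 9 formed the unbroken stretch CenU 56 to CenU 64, where RT minus had 27 to 108 reads a code. The plot of reads by code shows that codes with many reads in RT minus also had many in RT plus.

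**Figure D1:**
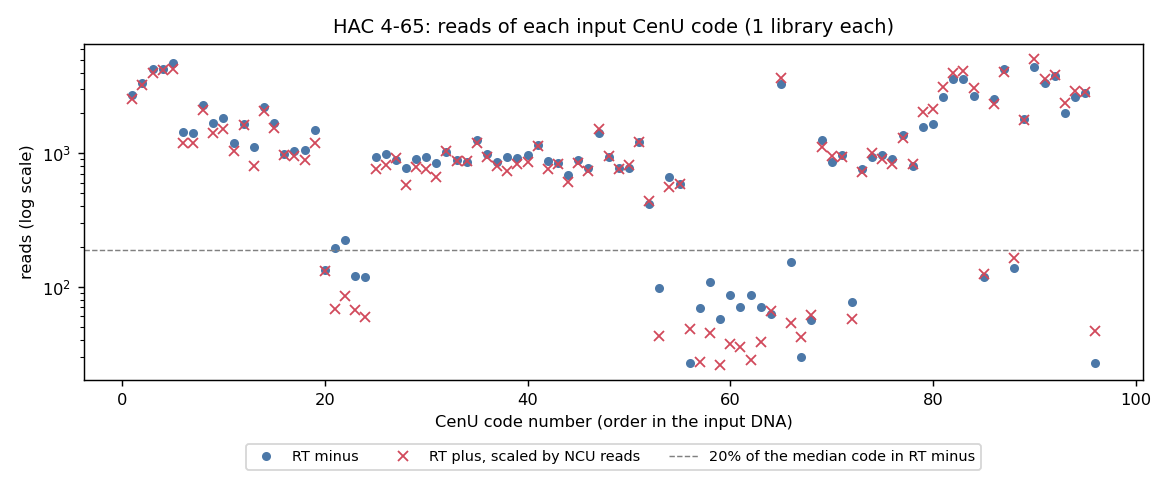
Reads of each input CenU code (vertical axis, log scale) by code number in HAC 4-65, with RT minus as circles and RT plus, scaled by the summed NCU reads, as crosses; there is 1 library of each. The circles and crosses lie close together except among codes with few reads, and the stretch from CenU 56 to CenU 64 lies below 20% of the median (dashed line).

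The ratios of single CenU codes spread more widely than those of NCU codes. Over the 96 CenU codes the median log2 ratio was -0.08, the SD over codes 0.47 and the range -1.59 to 0.82, whereas the SD over the 96 NCU codes was 0.11. In CenU the interval of 15 codes lay above 1, that of 42 below 1, and that of 39 held 1. In NCU it lay above 1 for 17 codes and below 1 for 17. Over CenU and NCU codes together the shares were 16.7% above and 30.7% below. With a value at least 25% higher or 20% lower also required, 4 CenU codes were higher and 17 lower, beside 2.6% and 8.85% of all 192 codes, and 1 NCU code was higher and 0 lower. At 2-fold, 9 CenU codes were lower (4.69% of all codes) and 0 higher (0%).

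Much of this spread lay in codes with few reads. For the 76 CenU codes whose RT minus reads reached 20% of the median, the SD over codes was 0.28, against a median counting error of 0.065 for a single code. In these, 2 codes were at least 25% higher and 6 at least 20% lower. CenU 21 and CenU 22 were the 2 that were lower by 2-fold, and without them, a choice made after their values were seen, the SD was 0.17. For the 95 NCU codes above the same limit the SD was 0.073 and the median counting error 0.030. Both kinds of code thus varied by more than counting error. The SD was larger in CenU, whose median code had 942 reads in RT minus against 4993 in NCU. Without CenU 21 and CenU 22 the median counting error of CenU was 0.063. What the wider spread of CenU comes from was not tested.

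**Figure D2:**
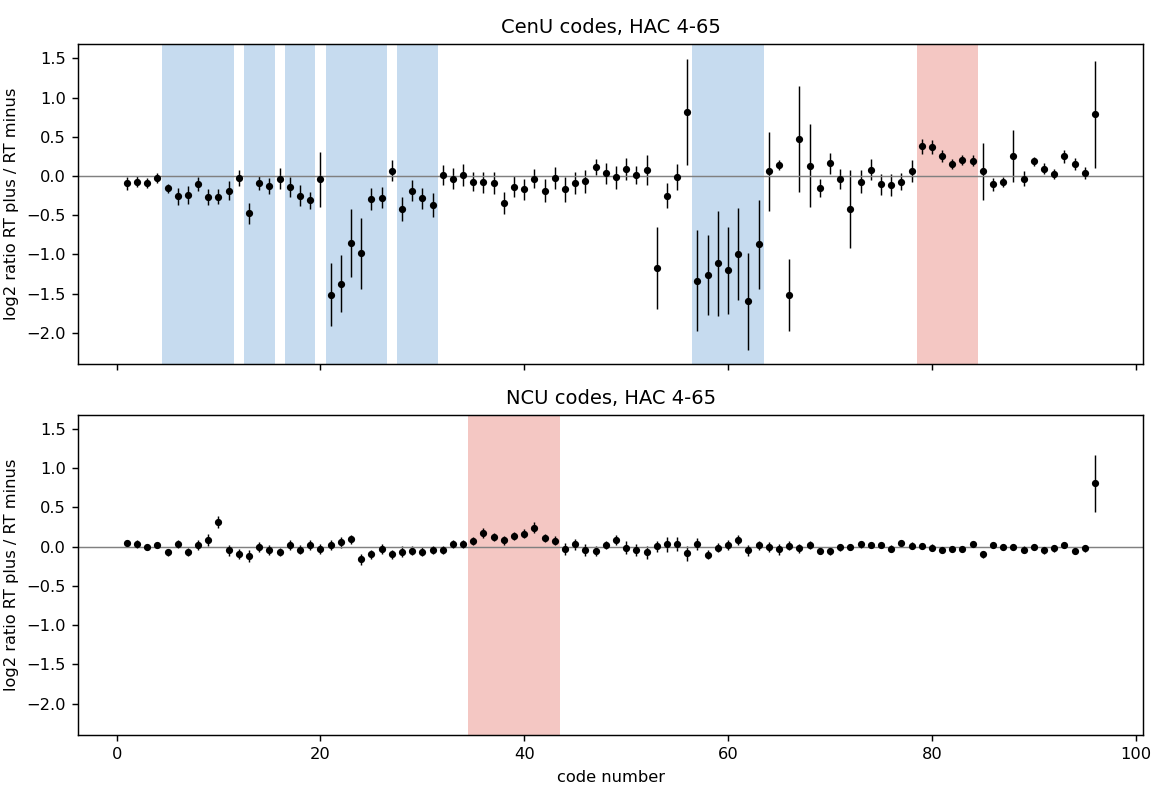
Log2 ratio of RT plus to RT minus for each CenU code (top) and NCU code (bottom) of HAC 4-65, with 95% counting intervals as vertical lines. Shading marks runs of at least 3 neighbouring codes whose intervals all lie on 1 side of 1 (blue for lower, red for higher): CenU has 6 lower runs and 1 higher run, and NCU has 1 higher run from NCU 35 to NCU 43.

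The codes were then read along their number, which orders the units of the DNA put into the cells. How the units are arranged in the finished HAC 4-65, and which codes make up its CENP-A dense and sparse stretches, were not used here, and no value below is assigned to either kind of chromatin. Neighbouring numbers also share letters, because bases 9 and 10 stay the same over most blocks of 16 numbers, so position and code letters cannot be told apart along this order.

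CenU 79 to CenU 84 formed the 1 run that was higher in RT plus. Every run was chosen by intervals on 1 side of 1. Agreement among its codes, and a pooled interval that leaves out 1, are therefore no separate result. Where 2 read counts are given for a code, that of RT minus comes first, and ratios are scaled. CenU 79 went from 1560 reads without to 1951 with reverse transcription, a ratio of 1.30 (95% interval, 1.22 to 1.39). CenU 80 went from 1643 to 2038 reads, a ratio of 1.29 (1.21 to 1.38). No other code above the 20% limit was at least 25% higher. CenU 81 went from 2628 to 3003 reads, CenU 82 from 3574 to 3826, CenU 83 from 3601 to 3974, and CenU 84 from 2697 to 2969. Their log2 ratios were 0.25, 0.16, 0.20 and 0.20. All 6 were higher before scaling as well, and the ratio was largest at the 2 codes with the fewest reads.

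Summed over the run, 15703 reads in RT minus stood against 17761 in RT plus, a ratio of 1.18 (95% interval, 1.15 to 1.20). On the scaled count this was 2802 reads more in RT plus. NCU 79 to NCU 84 had a ratio of 0.990 (0.979 to 1.00), and these codes share the letters of CenU 79 to CenU 84 apart from base 4. Next to the run, CenU 85 had 119 reads in both libraries, and its interval (0.809 to 1.34) held both 1 and the ratio of the run. CenU 86 was lower, going from 2524 reads to 2249. Other codes of the upper numbers whose intervals lay above 1 were CenU 65, CenU 70, CenU 90, CenU 91, CenU 93, CenU 94 and CenU 96. Against these, the intervals of CenU 66, CenU 69, CenU 86 and CenU 87 lay below 1. Among the lower numbers, those of CenU 47 and CenU 56 lay above 1. CenU 93 went from 2014 to 2298 reads with a log2 ratio of 0.25, and CenU 90 from 4434 to 4845 with 0.19. CenU 70, with fewer reads, went from 852 to 915 and had a log2 ratio of 0.16.

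The lower runs lay in CenU 5 to CenU 31 and in CenU 57 to CenU 63. The first of them, CenU 5 to CenU 11, summed to 14603 reads in RT minus against 12252 in RT plus, a ratio of 0.874 (95% interval, 0.853 to 0.895). CenU 5 had the most reads of any CenU code in RT minus, with 4763 there and 4100 in RT plus. CenU 6 went from 1438 to 1153 reads, CenU 7 from 1416 to 1148, and CenU 8 from 2278 to 2033. CenU 9 went from 1692 to 1354 reads, CenU 10 from 1833 to 1468, and CenU 11 from 1183 to 996. Log2 ratios in this run ran only from -0.26 to -0.10, so the decrease was small at each code, and its shared direction follows from how runs were chosen. NCU 5 to NCU 11 had a ratio of 1.01. NCU 10 was among the 2 highest NCU codes, with a log2 ratio of 0.31, while CenU 10 was at -0.26.

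Shorter runs followed at CenU 13 to CenU 15, with a ratio of 0.882, CenU 17 to CenU 19, with 0.846, and CenU 28 to CenU 31, with 0.808 (95% interval, 0.768 to 0.849). In the first of these CenU 13 stood out, going from 1106 reads to 763 with a log2 ratio of -0.48. CenU 19 went from 1478 to 1144 reads, a log2 ratio of -0.31. In the last, CenU 28 went from 778 to 558 reads and CenU 31 from 850 to 631, with log2 ratios of -0.42 and -0.37. CenU 38, outside any run, was also lower, going from 943 reads to 711.

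CenU 21 to CenU 26 joined 2 kinds of code. CenU 21 went from 194 reads to 65, a ratio of 0.351 (95% interval, 0.265 to 0.464). CenU 22 went from 222 to 82 reads, a ratio of 0.386 (0.300 to 0.497). CenU 23 had 121 and 64 reads, and CenU 24 had 118 and 57. These 4 codes were scarce in DNA and still scarcer in RT plus. CenU 25 and CenU 26, with 935 and 982 reads in RT minus, had 733 and 779 in RT plus, a decrease of the size seen in the nearby runs. Pooled, the run had a ratio of 0.721 (0.679 to 0.766). CenU 20, next to it, was as scarce, at 134 and 125 reads, and its interval held 1.

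The lowest run, CenU 57 to CenU 63, lay inside the stretch that was scarce in DNA. Its sum went from 549 reads to 228, a ratio of 0.433 (95% interval, 0.371 to 0.505). CenU 57 went from 69 to 26 reads, CenU 58 from 108 to 43, and CenU 59 from 57 to 25. CenU 60 went from 87 to 36 reads, CenU 61 from 71 to 34, CenU 62 from 86 to 27, and CenU 63 from 71 to 37. Log2 ratios in the run went from -1.59 to -0.87, and by its definition it ends where the next interval no longer lay below 1. CenU 56 had 27 and 46 reads, and CenU 64 had 63 in both. NCU 57 to NCU 63 had a ratio of 0.996 (0.980 to 1.01).

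Codes with this few reads were set beside the NCU code 1 base away, whose misread copies could be counted here. Other CenU codes can lie 1 base away as well, and no share of theirs was taken. CenU 66, for example, is 1 base from CenU 2 and CenU 82. These had 3377 and 3574 reads in RT minus, beside 4978 for NCU 66. For the 7 low codes that were lower by 2-fold, which are CenU 53, 57, 58, 59, 60, 62 and 66, the CenU reads were a median 2.52% of the NCU partner's in RT minus (1.14 to 3.07%), which compares with 0.928% in RT plus (0.527 to 1.29%). CenU 66 was the fullest of them, going from 153 reads to 51. A level for codes that are not in a line's input was given by HAC 1-20, where CenU 2 to CenU 64 were outside the input and had a median of 0.727% of the partner in RT minus and 0.488% in RT plus. These absent codes ran from 0.226 to 2.34% without reverse transcription and from 0.225 to 1.92% with it. The 7 low codes were chosen by their decrease, so the decrease of their share is no separate result. Among the 19 low codes with such a partner, 9 were above 2% in RT minus and 3 in RT plus. How much of these reads came from NCU or from other CenU codes was not tested.

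**Figure D3:**
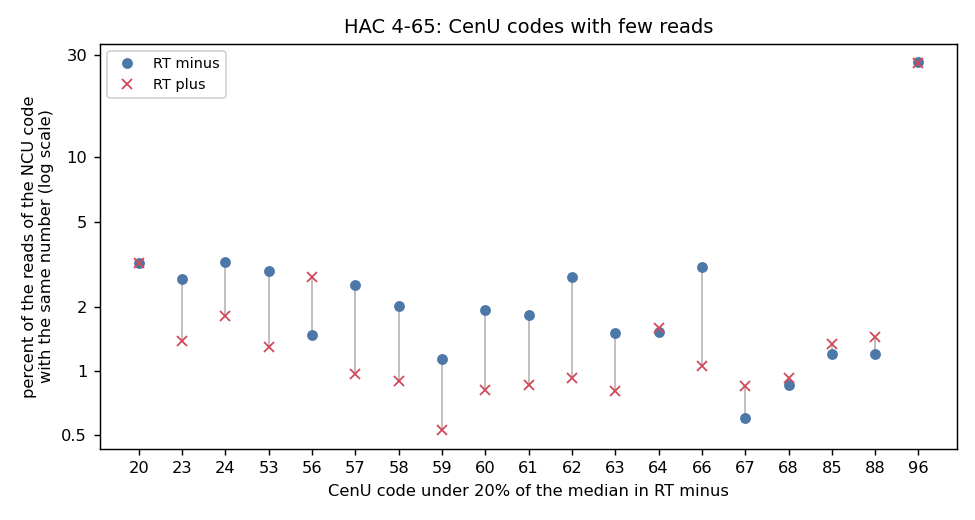
Reads of each CenU code under 20% of the median in RT minus, as a percent of the reads of the NCU code with the same number (vertical axis, log scale), for RT minus (circles) and RT plus (crosses) in HAC 4-65. CenU 72, whose letters the lists give differently, is not drawn; 11 of the 19 codes fell between the circle and the cross with intervals below 1, and CenU 96 stands apart at 27.8% and 27.6%.

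The other low codes went different ways. CenU 56 and CenU 96 were higher, CenU 96 going from 27 reads to 45. NCU 96 moved in step with CenU 96, from 97 to 163 reads, and was the 1 NCU code at least 25% higher. CenU 67 had 30 and 40 reads, and its interval held 1. For the 7 low codes whose interval held 1, the median share of the partner was 1.20% without and 1.39% with reverse transcription. CenU 66, with 16.2% of the median, was the last code below the 20% limit and CenU 21, with 20.6%, the first above it. Their log2 ratios, -1.52 and -1.51, were close, so that limit does not part the strongly lowered codes from the rest.

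**Figure D4:**
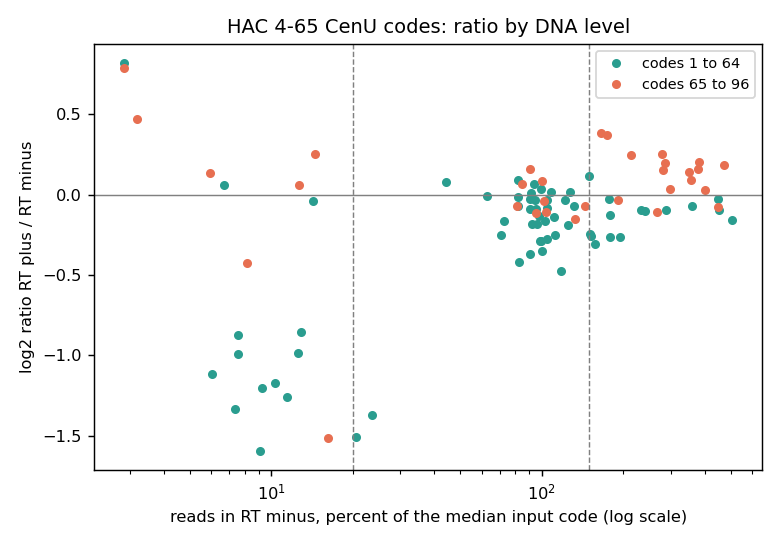
Log2 ratio of RT plus to RT minus for the 96 CenU codes of HAC 4-65 against the reads of the code in RT minus, as a percent of the median input code (log scale); dashed lines stand at 20% and 150%. Codes under 20% spread from -1.59 to 0.82, and above 150% codes 65 to 96 lie mostly above 0 and codes 1 to 64 mostly below 0.

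By level in DNA, the 20 codes under 20% of the median held 1.37% of the CenU reads in RT minus and had a pooled ratio of 0.702 (95% interval, 0.651 to 0.756). The 46 codes from 20% to 150% had a pooled ratio of 0.930 (0.917 to 0.943). Pooled over the 30 codes above 150%, the ratio was 1.02 (1.01 to 1.03), with 11 intervals above 1 and 13 below. Spearman's correlation of the ratio with RT minus reads was 0.27 over the 96 codes, as a description, since both contain the RT minus count and all codes share the same 2 libraries. Within the codes having at least 20% of the median it was -0.01 over the 51 of number 1 to 64 and 0.28 over the 25 of number 65 to 96. Pearson's correlation of the log2 ratio with log2 RT minus reads was 0.49 and 0.30 in these 2 sets, and 0.39 over the 96 codes. The 2 measures thus differed most for numbers 1 to 64. The ratios of CenU codes and of the NCU codes of the same number were hardly related, with a Spearman's correlation of -0.09.

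The codes were also divided by their place along the input. Codes 1 to 64, which are in the input of HAC 4-65 but not of HAC 1-20, had a pooled CenU ratio of 0.911 (95% interval, 0.901 to 0.921), and their scaled reads dropped by 6138 in RT plus. Codes 65 to 96, which are in both inputs, had 1.07 (1.06 to 1.09), with 4104 scaled reads more. With the references CenU 1 and CenU 72 exchanged, an alternative added after the data were seen, the ratios were 0.910 (0.900 to 0.920) and 1.07 (1.06 to 1.08). Of the 51 codes 1 to 64 with at least 20% of the median, 8 were above a log2 ratio of 0 and 43 below. Of the 25 such codes 65 to 96, 16 were above and 9 below. The NCU codes of the same numbers had ratios of 1.01 and 0.992. The near-equal CenU totals of the 2 libraries thus summed a decrease over the lower numbers and an increase over the upper ones.

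In sums of 8 neighbouring codes the ratio fell from 0.927 at CenU 1 to 8 and 0.889 at CenU 9 to 16 to 0.787 at CenU 17 to 24, and then came back through 0.869 and 0.926 to 0.978 at CenU 41 to 48. CenU 49 to 56 had 0.986. CenU 57 to 64, in which all 8 codes were low in DNA, had 0.495. The last 4 segments, from CenU 65 to 72 up, had 1.03, 1.09, 1.08 and 1.08. With CenU 1 and CenU 72 exchanged, CenU 1 to 8 had 0.926 and CenU 65 to 72 had 1.00 (95% interval, 0.975 to 1.03). Of the 12 segments, 6 had intervals below 1 and 3 above, while in NCU the segments ran only from 0.958 to 1.07.

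**Figure D5:**
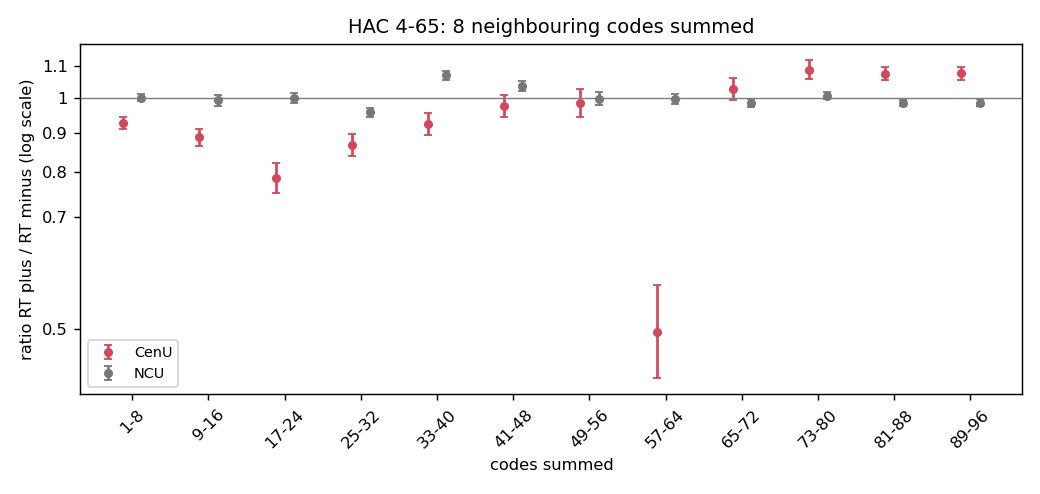
Ratio of RT plus to RT minus (log scale) for sums of 8 neighbouring codes in HAC 4-65, with 95% counting intervals, CenU in red and NCU in grey. CenU dips to 0.787 at codes 17 to 24 and to 0.495 at codes 57 to 64 and reaches 1.09 at codes 73 to 80, whereas NCU stays between 0.958 and 1.07.

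NCU had 1 run of its own, at NCU 35 to NCU 43, which rose from 44965 to 47110 reads, a ratio of 1.09 (95% interval, 1.08 to 1.11). The CenU codes of these numbers went the other way, with a ratio of 0.921. NCU 24 and NCU 13 were the lowest NCU codes, with log2 ratios of -0.16 and -0.12. A shift of this size therefore also arose over neighbouring codes in the unit that served as the reference, and the CenU ratios nearest to 1 were no further from it than these.

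Read by letters instead of place, the median log2 ratio of the CenU codes above the 20% limit ran from -0.29 for AT to 0.15 for TT at bases 9 and 10, and from -0.25 for TT to 0.03 for CG at bases 14 and 15. Codes with AT at bases 9 and 10 are CenU 17 to CenU 32, and those with TT are CenU 81 to CenU 96. CenU 5 to CenU 11 lie within the AA block, where 0 of the 15 codes above the limit had a log2 ratio over 0. CenU 57 to CenU 63 lie within the AC block. The higher run crosses blocks, as CenU 79 and CenU 80 have TA and the rest of it has TT. NCU codes of the same blocks differed far less, as their segments show. Place and letters were not separated, and neither was tested.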

How the data were processed

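The authors amplified the position codes from RNA with or without reverse transcription by competitive PCR, sequenced the product, trimmed it with cutadapt 4.0, matched it with Bowtie and tallied it with SAMtools; the deposited values are raw counts of reads per code reference, with unmatched reads in a last row that was left out of totals (6.26% of reads in RT minus, 7.54% in RT plus). References T 1 to 128 and L 1 to 96 were read as CenU and NCU codes. RT plus counts were divided by the ratio of summed NCU reads. Ratios were formed after adding 0.5 reads, where the 2 libraries summed to 10 reads or more, and their 95% intervals assume counting error (Wilson intervals for shares); a code was called when its interval lay on 1 side of 1 and it was at least 25% higher or 20% lower, or differed by 2-fold. Runs needed at least 3 neighbouring codes. The codes named were the 8 highest and 8 lowest with at least 20% of the median in RT minus, the 5 lowest and 3 highest under it, all codes of long runs, CenU 1 and 72, and 2 NCU codes a direction; others were named after their values were seen. Members and lists were chosen with earlier results of these data known. Scripts used Python 3.11.15, numpy 2.4.6, scipy 1.17.1 and matplotlib 3.10.9 and were tested on simulated data. The simulation held counting error only, with changes placed at CenU 5 to CenU 11 and CenU 79 to CenU 84. It therefore cannot show how reliable calls or runs are in these libraries, which varied by more than counting error.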

Additional observations from a re-analysis of the deposited data

Results flagged for a closer look

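Reads outside the comparisons were a larger part of RT plus than of RT minus. CenU codes 97 to 128, which are not in the input of HAC 4-65, went from 171 reads to 372 between RT minus and RT plus, a ratio of 2.27 (95% interval, 1.89 to 2.72) on the NCU scale. The 288 L references that are not NCU codes had 1287 and 1897 reads, a ratio of 1.54 (1.43 to 1.65). After scaling, 31 of the 32 CenU codes were higher in RT plus, but only 150 of the 288 L references were. Unmatched reads numbered 47671 and 55789, a ratio of 1.22 (1.20 to 1.23). What these reads come from was not tested.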

How the results depend on the processing

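No paired analysis was possible because RT plus and RT minus had only 1 library apiece. For the same reason no library could be left out, and nothing shows how much the ratios would vary between repeats of the PCR or of the cells. Of 57 alternatives over 15 summary results, 44 left a count within 1.5-fold or a value within its 95% interval, 13 moved it further, and 0 reversed a direction. The 30 codes in lower runs were 23 with scaling by summed CenU reads and 20 with a minimum run of 5. By medians instead of sums the CenU to NCU log2 ratio was -0.10. With only codes of at least 20% of the median, 2 codes were higher and 6 lower at the 25% and 20% limits, 2 were lower at 2-fold, the SD was 0.28 and the lowest segment had a log2 ratio of -0.33. Leaving out CenU 21 and CenU 22 as well, a choice made on seeing their values, gave an SD of 0.17. At a limit of 1.5-fold 2 codes were higher. The lowest share of the NCU partner seen in each library was also subtracted from the 94 CenU codes with a partner 1 base away. It was 0.605% in RT minus (CenU 67) and 0.527% in RT plus (CenU 59), so these 2 counts fell to nothing by construction. With this subtraction 2 codes were higher at 2-fold, the SD was 1.02 and codes low in DNA had a log2 ratio of -0.67. The log2 ratios of CenU 67 and CenU 59 became 5.04 and -5.71, and both enter that SD. Segments of 16 codes gave a lowest value of -0.25, and limits of 10% and 200% gave 0.043 for codes high in DNA. Of 184 alternatives for 46 single codes, 9 moved the value, all by subtraction in CenU 57 to 63, 66 and 67. Codes with under 100 reads carry counting errors near 0.3 on the log2 scale, so only changes near 2-fold could be told there.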
